A study of Ovis aries with 3 samples.

Results

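The miR-376 family of the sheep was examined in small RNA libraries of the duodenum (DU), cecum (CE), and colon (CO). The family was taken as every entry of the deposited tables whose name begins with oar-miR-376, whatever the letter and the arm, which gave 9 of the 822 entries. These came from 5 precursors, miR-376a to miR-376e. The 3 libraries, 1 for each segment, were made from Small tailed Han sheep, all ewes 11 months old and with no treatment named, and the tissue was labelled as intestinal mucosal epithelial tissue. RNA of the same 3 ewes was pooled for every library, so there were no replicates, and every difference below is between libraries, with errors that cover counting only.

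The miR-376 genes lie in the imprinted DLK1-DIO3 region, within a long run of miRNA genes (the miR-379/miR-410 cluster) that is transcribed from the maternally inherited chromosome. In mammals the cluster is best known from brain, placenta, muscle, and embryonic tissue. The members of the family are close copies of each other, and each precursor hairpin can give a mature miRNA from its 5′ arm (5p) and from its 3′ arm (3p). The seed, bases 2 to 8 of the mature miRNA, does most of the work in target recognition, so that members with the same seed are expected to share many targets.

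The 9 entries held 8 distinct sequences, which are shown because the family divides by its seeds and because an exact repeat decides how reads were counted. They are copied from the deposited tables, 5′ to 3′ and written with T, and the capitals mark the seed.
miR-376a-3p: aTCATAGAggaaaatccacgt
miR-376b-3p: aTCATAGAggaaaatccatgt
miR-376d: aTCATAGAggaaaatccacat
miR-376c-3p: aACATAGAggaaattccacgt
miR-376e-3p: aACATAGAggaaaatccacatt
miR-376b-5p: gGTGGATAttccttctatgttt
miR-376e-5p: gGTGGATAttccttctatgttt
miR-376c-5p: gTGGATATtccgtctatgttt
miR-376a-5p: tAGATTCTccttctatgagtac

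On the 3p side there were 2 seeds. TCATAGA was shared by miR-376a-3p, miR-376b-3p, and miR-376d, and ACATAGA by miR-376c-3p and miR-376e-3p. The name miR-376d carries no arm, but its sequence aligned with the 3p entries from the first base on and was counted with them. All 5 of these sequences contained the 11-base run CATAGAGGAAA, which none of the 813 entries outside the family held.

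Positions are counted from 1 at the 5′ end of the entry named first. From miR-376a-3p to miR-376b-3p the single difference was C19T, and from miR-376a-3p to miR-376d it was G20A, both in the tail of the molecule. From miR-376d to miR-376e-3p the aligned bases differed by T2A alone, the change that separates the seeds. From miR-376c-3p to miR-376e-3p the differences were T14A and G20A, outside the seed.

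On the 5p side, miR-376b-5p and miR-376e-5p were identical over all 22 bases. miR-376c-5p began 1 base later and otherwise differed from miR-376b-5p by T13G, so its seed was TGGATAT instead of GTGGATA although the bodies of both molecules are nearly the same. miR-376a-5p had the seed AGATTCT. None of these 5 seeds occurred in an entry outside the family. The nearest outside entry differed at 3 of 16 aligned bases and was listed with 0 reads in every library.

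The miR-376 transcripts are known in human and mouse as targets of A-to-I editing, which is read as an A-to-G change and can replace a base of the seed. None of the 813 other entries equalled a member with 1 A-to-G change. The authors assigned reads to known miRNAs without mismatch, so a read with an edited base could not be counted under its own entry. Within the family, an A-to-G change at base 20 would turn miR-376d into miR-376a-3p, which had 0 reads in every library.

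The entries of the tables summed to 14462675 (DU), 15072945 (CE), and 13769740 (CO) reads. A normalized read below is 1 read per 1000000 clean reads mapped to the genome. The normalization formula in the study's methods divides by all clean reads instead, a scale on which 1 normalized read stands for more reads. A count of 0 was read against a floor of 3 reads, which corresponded to 0.179 normalized reads in the DU, 0.176 in the CE, and 0.181 in the CO library. The most abundant entry in each library was miR-143, known from smooth muscle and other mesenchymal cells, with 31.9% of the counted reads in DU, 48.4% in CE, and 48.0% in CO, while miR-194, known from intestinal epithelium, had 1.06%, 0.486%, and 0.730%. In such bulk samples, more cells of a type and more of a miRNA per cell cannot be told apart.

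The miR-376 family was present at a low level in all segments. When each sequence was counted once, 50 (DU), 60 (CE), and 55 (CO) reads belonged to the family, which is 2.99, 3.53, and 3.32 per 1000000 mapped reads. Reads were found in all libraries for 7 of the 9 entries, in CE and CO but not in DU for miR-376a-5p, and in none for miR-376a-3p. Only 3 entries reached 10 reads in any library, against 106 of the 146 known miRNA entries. Of these 146, 9 were the family's own, 75 came from the rest of the cluster, and 12 from the adjoining miR-127/miR-136 group. The study's methods discarded miRNAs that stayed under 10 reads in each sample as false positives. By that rule the other members would not count as detected.

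miR-376c-3p was the leading member. DU held 24 reads of it (95% Poisson interval, 15.4 to 35.7), CE 30 (20.2 to 42.8), and CO 22 (13.8 to 33.3). These were 1.43, 1.76, and 1.33 normalized reads, and they placed it at rank 91, 90, and 93 among the 146 known entries. It alone supplied 24 of the family's 50 reads in DU, 30 of 60 in CE, and 22 of 55 in CO. The intervals of the libraries overlapped broadly.

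The sequence shared by miR-376b-5p and miR-376e-5p had 7, 10, and 11 reads in DU, CE, and CO, next after miR-376c-3p in CE and CO, while in DU miR-376e-3p had 1 read more. The files list these reads in full under both names, so the reads of each precursor cannot be told apart. In DU and CE its Poisson intervals (2.81 to 14.4 and 4.80 to 18.4 reads) lay below those of miR-376c-3p, whereas in CO its interval, 5.49 to 19.7 reads, overlapped that of miR-376c-3p. The order among the lower members was less certain, because the intervals of neighbours in that order overlapped in every library. Reads of different sequences are also not captured with equal efficiency in small RNA libraries, so an order in reads need not be an order in molecules.

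The other members had 8 reads or fewer in every library. miR-376e-3p had 8, 6, and 6 reads in DU, CE, and CO, and miR-376c-5p had 4, 7, and 7. miR-376b-3p had 6, 1, and 3 reads, fewer in both large intestine libraries than in DU. miR-376a-5p had 0, 5, and 4 reads, so that it was seen in the large intestine libraries only. miR-376d had 1, 1, and 2 reads. Over the 3 libraries together, miR-376c-3p had 76 reads, the shared 5p sequence 28, miR-376e-3p 20, miR-376c-5p 18, miR-376b-3p 10, miR-376a-5p 9, and miR-376d 4.

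Thus the members with the seed ACATAGA were the most abundant, with 32, 36, and 28 reads in DU, CE, and CO, while those with the seed TCATAGA had 7, 2, and 5 reads. The sequences of miR-376a-3p and miR-376d differ by 1 base near the 3′ end, and their first 19 bases are equal. miR-376b-3p shares its first 18 bases with both. The authors accepted matches of 16 bases or more to a mature miRNA if the read matched the precursor without mismatch. A read of any of these that ended within the shared bases could not have been told from the others by its mature bases alone.

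**Figure D1:**
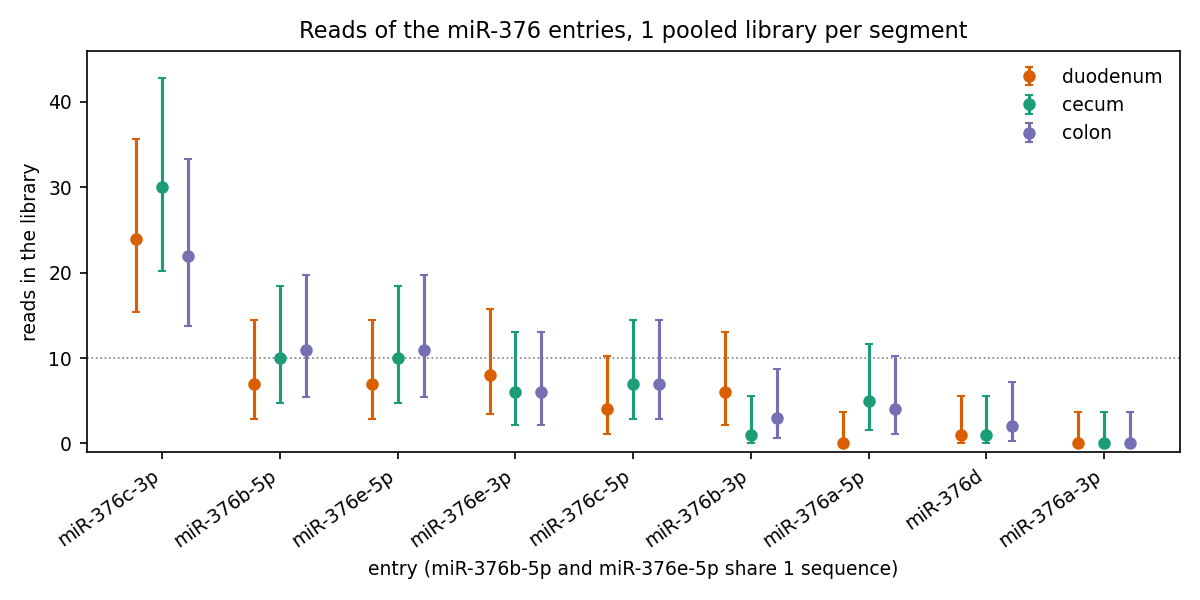
Reads of each miR-376 entry (names on the x axis) in the duodenum, cecum, and colon libraries, with the number of reads on the y axis and bars for the exact Poisson 95% interval, which covers counting error only. miR-376c-3p stands highest with 24, 30, and 22 reads, and miR-376a-3p is at 0 in every library.

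To see whether the members differed between the segments, the counts of the libraries were compared with the exact Audic-Claverie test, the test that the study used, over the entries that reached 1 normalized read in one or the other library. An entry was called where the Bonferroni corrected p was under 0.01 and the levels differed 2-fold or more. Only miR-376c-3p reached 1 normalized read, and it was not called in any comparison. From DU to CE 36.5% of the 348 tested entries were called, from DU to CO 33.9% of 363, and between CO and CE 22.7% of 326. Known entries were called less often. Of 93 tested, 9 were called as higher in CE than in DU and 2 as lower. Of 94 tested, 6 were called as higher in CO than in DU and none as lower. Between CO and CE, 2 of 94 were called as higher in CO and none as higher in CE.

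The log2 ratio of miR-376c-3p was 0.30 for CE to DU (exact 95% interval, -0.52 to 1.14), -0.11 for CO to DU (-1.01 to 0.79), and 0.41 for CE to CO (-0.43 to 1.27). The exact Audic-Claverie p was 0.535, 0.797, and 0.381 before correction and 1 after it. The sign of the CO to DU ratio depended on the scaling, since it was 0.046 with the TMM factors of edgeR. All intervals included no change, and all also included a 2-fold difference, an increase for CE to DU and CE to CO and a decrease for CO to DU, so a difference of that size was not detectable at this depth. With 24 reads in DU, a call would have needed at least 65 reads or at most 3 reads in CE, and at least 64 or at most 2 in CO.

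The remaining members were under the limit for testing, and their ratios are given with counting intervals. The sequence shared by miR-376b-5p and miR-376e-5p had a log2 ratio of 0.49 for CE to DU (-1.05 to 2.12) and 0.67 for CO to DU (-0.83 to 2.27). miR-376c-5p had 0.78 (-1.19 to 3.00) and 0.82 (-1.15 to 3.04). Both of these 5p sequences had more reads in the large intestine libraries than in DU, within their intervals of no change.

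In contrast, miR-376e-3p and miR-376b-3p had fewer reads in both large intestine libraries than in DU, again within their intervals of no change. miR-376e-3p had a log2 ratio of -0.44 for CE to DU (-2.24 to 1.28) and -0.40 for CO to DU. For miR-376b-3p the values were -2.61 (-8.13 to 0.43) and -0.99 (-3.61 to 1.24). The first of these rests on a single CE read. miR-376a-5p had 0 reads in DU, and set against the floor of 3 reads its level was at least 1.64-fold higher in CE and at least 1.35-fold higher in CO. With the counting error of both libraries included, the lower limits were -0.15 and -0.58 on the log2 scale, so no change was not excluded for it either. Between CO and CE, the interval of every member with reads in both libraries included no change. When every entry with a read was tested, with no minimum, none of the 8 members with reads was called in any comparison. The lowest p was then that of miR-376a-5p for CE to DU, 0.0651 in the exact Audic-Claverie test, which was 1 after correction.

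Summed over the distinct sequences, the family differed little between the libraries. Its log2 ratio was 0.24 for CE to DU (-0.33 to 0.81), 0.15 for CO to DU (-0.43 to 0.73), and 0.09 for CE to CO (-0.46 to 0.64). All 3 intervals lay within a 2-fold change in either direction. The 3p members together had 39, 38, and 33 reads in DU, CE, and CO, with a log2 ratio of -0.06 for CE to DU (-0.74 to 0.62) and -0.23 for CO to DU (-0.94 to 0.48). The 5p members together had 11, 22, and 22 reads, with a log2 ratio of 0.98 for CE to DU (-0.13 to 2.17) and 1.01 for CO to DU, with a lower limit of -0.09. The 5p reads were thus about 2-fold more numerous in both large intestine libraries, but the intervals reached no change.

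**Figure D2:**
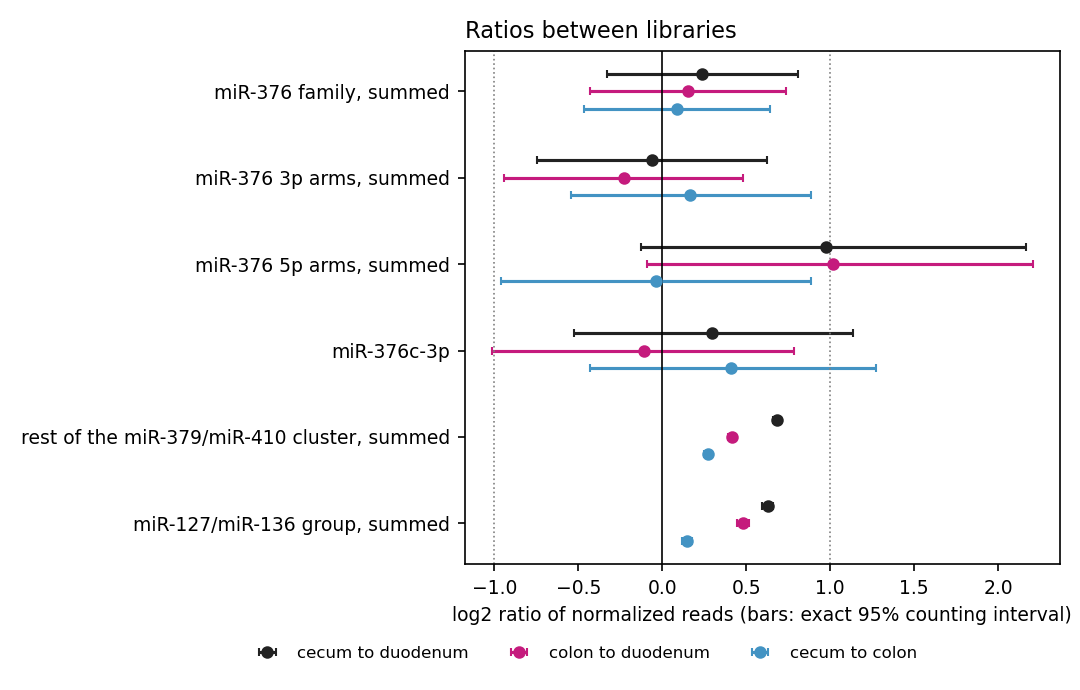
Log2 ratio of normalized reads between libraries (x axis), with exact 95% intervals as bars. Shown are miR-376c-3p and the sums of the family, its 3p and 5p members, the rest of the cluster, and the adjoining miR-127/miR-136 group. The intervals of miR-376c-3p and of the family's sums cross 0. Those of the rest of the cluster lie above it at 0.68 (CE to DU), 0.41 (CO to DU), and 0.27 (CE to CO).

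For the choice of arm, the 3p entry is compared with the 5p entry of the same precursor. miR-376c was read mainly from its 3p arm, which had 85.7% of its reads in DU (Wilson 95% interval, 68.5 to 94.3), 81.1% in CE (65.8 to 90.5), and 75.9% in CO (57.9 to 87.8). For miR-376e the 3p arm had 53.3% in DU (30.1 to 75.2), 37.5% in CE (18.5 to 61.4), and 35.3% in CO (17.3 to 58.7). The intervals of miR-376c and miR-376e did not overlap in the CE library but overlapped in DU and CO.

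miR-376b had 46.2% of its reads on the 3p arm in DU (23.2 to 70.9), 9.09% in CE (1.62 to 37.7), and 21.4% in CO (7.57 to 47.6). Since the 5p reads of miR-376b and miR-376e are the same reads, the 3p share of either would be higher if part of them came from the other. All reads of miR-376a were on its 5p arm, 5 in CE and 4 in CO, so that the 3p share was 0%, with Wilson upper limits of 43.4% and 49.0%. As the reads were counted, the precursors of the family did not share a leading arm. The 3p arm led in miR-376c, and the 5p arm was the only one seen in miR-376a. For miR-376a this rests on 5 and 4 reads. Any 3p reads of it that ended within the bases shared with miR-376d could not be told apart by their mature bases alone.

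The arm shares were compared between libraries with Fisher's exact test (two-sided) over all known precursors that had an entry for each arm and at least 10 reads. Of the 42 known precursors with an entry for each arm, 41 belong to the family, the rest of the cluster, or the adjoining miR-127/miR-136 group. The shares called below therefore describe almost only the imprinted region, not sheep miRNAs in general. At a Bonferroni corrected p under 0.01, none of miR-376b, miR-376c, and miR-376e was called, against 5.41% of 37 precursors from DU to CE, 5.41% of 37 from DU to CO, and 7.89% of 38 between CO and CE. The lowest p in the family was 0.0778 (Fisher's exact test before correction) for miR-376b from DU to CE, a fall of the 3p share from 6 of 13 reads to 1 of 11. For miR-376c the exact p was 0.745, 0.504, and 0.763 for CE to DU, CO to DU, and CE to CO. miR-376a had too few reads to be tested.

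Over the whole family, 3p reads made up 78.0% in DU (64.8 to 87.2), 63.3% in CE (50.7 to 74.4), and 60.0% in CO (46.8 to 71.9), with overlapping intervals. In the rest of the cluster, where a few 5p miRNAs take most of the reads, 3p entries had 26.3%, 26.0%, and 30.2%. Counted by precursor, 16 of its 31 precursors with both arms and at least 10 reads had more 3p than 5p reads.

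**Figure D3:**
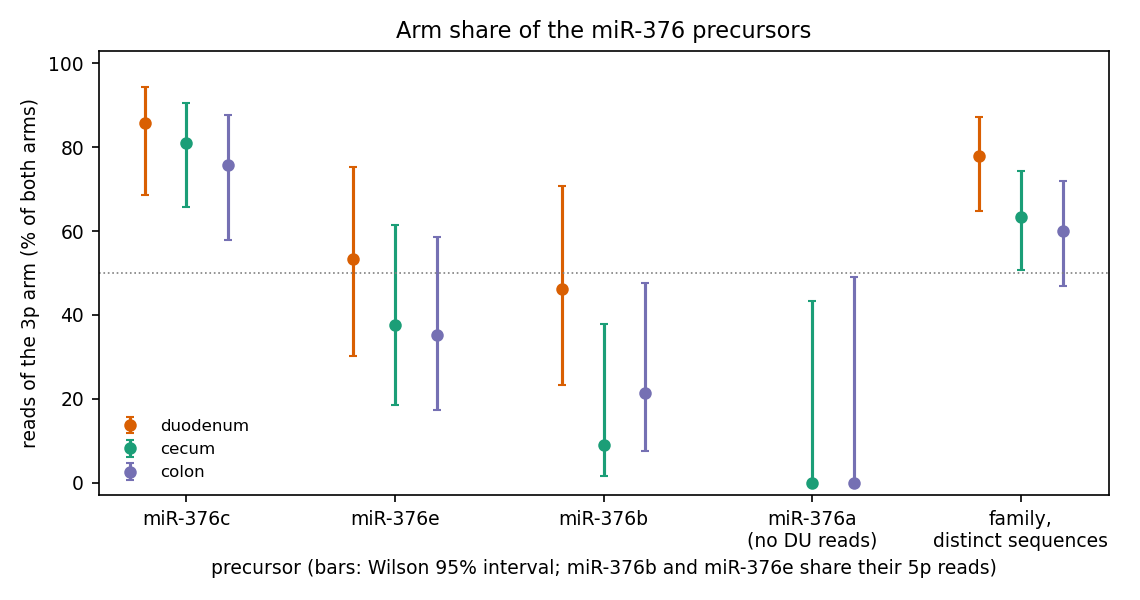
Share of reads on the 3p arm (y axis, % of the reads of both arms) for each miR-376 precursor with 2 arms and for the family as a whole in the duodenum, cecum, and colon libraries, with Wilson 95% intervals as bars and a dotted line at equal arms. miR-376c lies above the line in all libraries, between 75.9% and 85.7%, and miR-376a has its reads on the 5p arm only.

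The family was then set beside the genes around it. In the RefSeq gene table of the sheep assembly ARS-UI_Ramb_v3.0, which is a later build than the one the authors mapped to and is used here for gene order only, the precursors stand on chromosome 18 in the order miR-376e, miR-376c, miR-376d, miR-654, miR-376b, and miR-376a. On one side the next precursor is miR-3958 and on the other miR-1185. miR-3958-3p had 1201 reads in DU, 1739 in CE, and 1378 in CO, far above any member of the family. miR-654-3p, which stands among the members, had 3, 0, and 0 reads, and miR-1185-3p had 11, 17, and 25. The level of the reads therefore changed steeply from miR-3958 to its neighbour miR-376e, whose arms together had 15, 16, and 17 reads.

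The other 41 precursors of the cluster had 75 entries, whose reads ranged from 0 to 16917. Among these precursors 23 had more reads than miR-376c in DU and in CE, and 24 had more in CO. miR-376e was below 27, 29, and 29 of them, and miR-376d below 36, 37, and 36. The family made up 10.7% of the cluster's entries but 0.218% of its reads in DU (Wilson 95% interval, 0.165 to 0.287), 0.160% in CE (0.124 to 0.206), and 0.182% in CO (0.140 to 0.236). In contrast, miR-379-5p alone had 44.1%, 45.1%, and 39.9% of the cluster's reads.

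**Figure D4:**
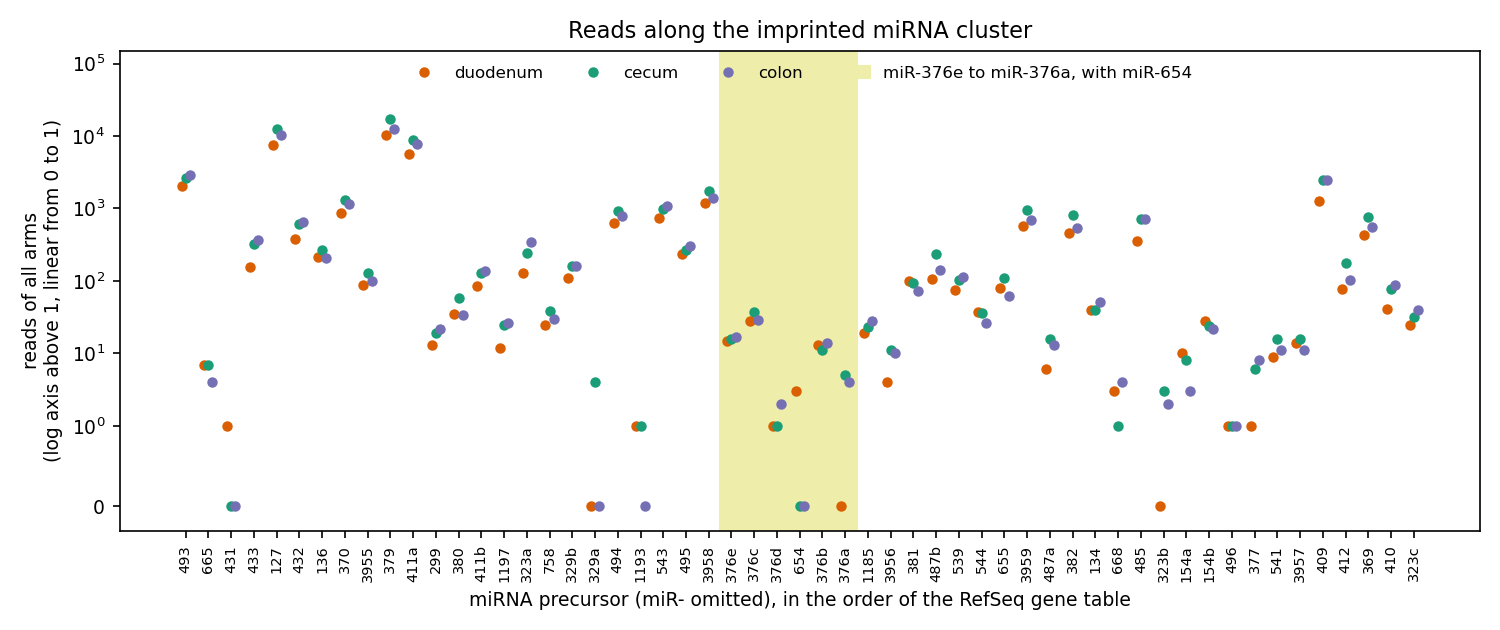
Reads of both arms (y axis, logarithmic above 1 read and linear from 0 to 1) of the miRNA precursors of the imprinted cluster, placed on the x axis in the order of the RefSeq gene table, for the duodenum, cecum, and colon libraries. The shaded stretch from miR-376e to miR-376a, with miR-654 inside it, holds between 0 and 37 reads per precursor, next to miR-3958, whose 3p entry alone has 1201 reads or more.

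The rest of the cluster had more reads in the large intestine libraries. Its summed reads were 22914 in DU, 37422 in CE, and 30231 in CO, with a log2 ratio of 0.68 for CE to DU (0.66 to 0.71) and 0.41 for CO to DU (0.39 to 0.44). The interval of the family's sum, -0.33 to 0.81 for CE to DU and -0.43 to 0.73 for CO to DU, included these values as well as 0, so the miR-376 reads were too few to tell whether the family followed its neighbours. Over the 39 entries of the rest of the cluster with a mean of at least 10 reads, the median log2 ratio was 0.71 for CE to DU and 0.54 for CO to DU, beside 0.30 and 0.27 over the 98 known entries and -0.23 and -0.09 over the 365 entries of all kinds. The 98 known entries include these 39, 8 of the adjoining miR-127/miR-136 group, and 1 of the family, so the known set is not independent of the cluster. The log2 ratio of miR-143 was 0.64 for CE to DU and 0.54 for CO to DU, and that of miR-194 was -1.09 and -0.59. The part of the tissue's cell makeup in these values was not tested.

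Few single neighbours passed the test and the 2-fold limit. Of the 34 tested entries of the rest of the cluster, 5 were called as higher in CE than in DU, and of 35 tested, 3 were called as higher in CO than in DU, while none was called lower and none was called between CO and CE. Over all entries tested, 12.1% of 348 were called as higher in CE and 13.8% of 363 as higher in CO. Over the known entries alone, the cluster's included, 9 of 93 tested were called as higher in CE and 6 of 94 as higher in CO. Of the 9, 5 were the cluster's and 1 was miR-433-3p of the adjoining group. Of the 6, 3 were the cluster's and 1 was miR-433-3p. Most calls of known entries as higher were thus from this region. The largest difference among the cluster's called entries was that of miR-485-3p, with 40, 149, and 193 reads in DU, CE, and CO. Its log2 ratios to DU were 1.87 and 2.28. The others called from DU to CE were miR-382-3p, miR-409-5p, miR-412-3p, and miR-487b-3p, with log2 ratios between 1.00 and 1.18. miR-323a-3p (1.42) and miR-409-3p (1.04) were called from DU to CO. In the adjoining group of miR-127 and miR-136, 1 of 8 tested entries, miR-433-3p, was called in both comparisons, with log2 ratios of 1.06 and 1.27. These calls rest on counting error alone. Where a coefficient of variation of 0.2 between libraries was assumed instead (edgeR exact test), none of the cluster's entries was called from DU to CE and 1 was called from DU to CO.

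Among the 93 known entries outside the family with at least 10 reads in every library, those whose pair of log2 ratios (CE to DU and CO to DU) lay nearest to the family's summed reads were miR-21, miR-30d, miR-30a-3p, miR-362, and miR-136. Their distances were 0.17, 0.18, 0.20, 0.20, and 0.20 on the log2 scale, over ratios from 3 libraries. Of these, miR-136 belongs to the same imprinted region, with 214, 271, and 207 reads in DU, CE, and CO. Entries of that region are common among the known entries. Of the 98 with a mean of at least 10 reads, 39 were from the rest of the cluster and 8 from the miR-127/miR-136 group. These distances are smaller than the counting error of the family's own ratios.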

How the data were processed

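Small RNA of the duodenum, cecum, and colon was sequenced by the authors (Illumina TruSeq small RNA libraries, 1 per segment). Per the study's methods, clean reads were mapped to Oar_v4.0 with SOAP 2.21, and known miRNAs were assigned against miRBase 21.0 precursors without mismatch; the submitters' processing notes also name Bowtie. The deposited files hold raw read counts of each entry, not normalized, and entries under 10 reads are included. Counts were scaled to 1000000 clean reads mapped to the genome, with the library totals of the study.

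Libraries were compared with the exact Audic-Claverie test (two-sided, as 2 times the smaller tail), arms with Fisher's exact test, and sums with exact binomial intervals (scipy 1.17.1). The p-values compare libraries, not segments. Intervals cover counting error only, since PCR reads without molecular identifiers are not independent molecules. Alternatives were other library sizes (edgeR 4.0.16 TMM, DESeq2 1.42.0 size factors, clean reads, summed counts), other filters, Benjamini-Hochberg correction, the edgeR exact test with an assumed coefficient of variation, and the libraries in the other order, the last chosen after seeing the data. The quasi-likelihood test could not be used with 1 library per segment. The scripts were tested on simulated data. Every miR-376 entry was named, along with the entries of the cluster that were called, the entries of the 3 neighbouring precursors, and the 5 nearest patterns. The members and lists were chosen with earlier results of these data known.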

Additional observations from a re-analysis of the deposited data

How the results depend on the processing

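No miR-376 entry was called under any alternative, and in 215 of 221 alternatives over the members the log2 ratio kept its sign. Changes of filter, correction, or test leave the ratio itself unchanged, so those alternatives could not have changed its sign. The identical miR-376b-5p and miR-376e-5p were both counted. The 6 changes of sign all started from ratios near 0. miR-376c-3p for CO to DU was at 0.046 with edgeR TMM instead of -0.11. miR-376d for CE to DU was at 0.054 (clean reads), 0.10 (TMM), and 0.073 (DESeq2 size factors) instead of -0.023, and miR-376c-5p and miR-376e-3p for CE to CO were both at 0.014 (DESeq2 size factors) instead of -0.038. With TMM all ratios to DU moved by 0.12 (CE) and 0.16 (CO). The number of entries called over the whole table fell where both libraries had to hold at least 10 reads, to 48 for CE to DU, 35 for CO to DU, and 15 for CE to CO. With the edgeR exact test at an assumed coefficient of variation of 0.2 it was 76 for CE to DU, and at 0.4 it was 38, 40, and 31. With entries of at least 10 reads in 1 library only, the family's share of the cluster's reads was 0.135% in DU, 0.107% in CE, and 0.109% in CO, as most members are then left out. The summed log2 ratio for CE to CO, 0.09, turned to -0.0049 with the summed counts as library size and to -0.18 without miR-376c-3p. The neighbours named as called lost the call in 21 of 100 alternatives, mostly in those with the edgeR exact test. At the assumed coefficient of variation of 0.2 only miR-485-3p for CO to DU kept the call, and at 0.4 no neighbour did. Reads per member limit all of these comparisons. No paired analysis was possible because each segment has 1 library.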
